A study of Mus musculus with 2 samples.

Results

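In embryonic mouse kidney cells of the Wnt4 lineage, 997 of 77421 stretches of open chromatin that were called as a single peak in control cells were broken into 2 or more peaks in cells lacking Brg1. A control peak counted as broken when it overlapped at least 2 different peaks of the Brg1 cKO library by 1 bp or more each, on chromosomes 1 to 19 and X. The 997 broken peaks made up 1.29% of the control list (1.21 to 1.37%, exact Clopper-Pearson 95% interval, as for all shares below unless another is named). These regions were chosen by the measured overlap of the peak lists, so their number, their pieces and their gaps are descriptions and were not tested. The same count made the other way round gave 878 of 61102 cKO peaks that overlapped 2 or more control peaks (1.44%, 1.34 to 1.53%), so breaks were found in both directions.

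Brg1, encoded by Smarca4, is an ATPase of the BAF complex, which uses ATP to slide and evict nucleosomes and so helps to keep enhancers and promoters accessible. In ATAC-seq a transposase inserts adapters where DNA is not covered by nucleosomes, and a peak is a stretch with many insertions. Broad stretches often span a promoter with its flanks or several neighbouring enhancers, and a gap inside such a stretch is a segment where the insertions fell below the limit of the peak caller. Wnt4 is a signalling gene switched on when kidney mesenchyme turns into the epithelium of the nephron, whose cells include the podocytes of the glomerulus and the cells of the tubules.

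Each genotype had 1 library, prepared from tdTomato-positive cells that were sorted from kidneys at E18.5, with 50000 cells per reaction. The cKO cells carried the genotype Brg1cKO/cKO and the other cells were labelled WT control, with a cell type label that reads only control. The sources used here give neither the Cre driver nor the number of animals. With 1 library per genotype there was no replicate spread, and every interval below covers counting error only, so the values describe these libraries and not the genotypes. The cKO list held 61102 and the control list 77421 peaks on the chromosomes used, and the depth of both libraries is unknown. Fewer cells of a type and less open chromatin per cell cannot be told apart in such bulk samples. A peak lay within 1000 bp of a gene end in both libraries for all 6 podocyte, 3 progenitor, 4 interstitial and 3 endothelial markers and for 6 of 7 markers of the early nephron, Cdh6 being the exception. Of 3 immune markers 0 had such a peak in the cKO library, against 2 in the control library. Among peaks within 100000 bp of a gene end, Ptprc had 4 in the cKO and 3 in the control library. For Csf1r these numbers were 2 and 4, and for C1qa 1 and 3. The markers thus do not show immune cells in the control library alone.

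Few transcription start sites listed in the RefSeq promoter table lay in the gaps, and the promoters of some of those that did are shown first. The windows are RefSeq sequences of GRCm38.p6, the assembly of mm10, from 250 bp before to 50 bp after a start site. They are written 5′ to 3′ on the strand of the gene, and capitals mark bases that no cKO peak covered. Ebf1 encodes a transcription factor known from B cells and mesenchyme, and 103 of the 300 bases of its window (chr11:44617850-44618149, + strand) were uncovered. Pax6 encodes a transcription factor of the eye and brain, and 115 bases of the window shown (chr2:105682213-105682512, + strand) were uncovered. The whole window of Gm52667, a long noncoding RNA gene (chr4:102569377-102569676, - strand), lay in a gap.
Ebf1: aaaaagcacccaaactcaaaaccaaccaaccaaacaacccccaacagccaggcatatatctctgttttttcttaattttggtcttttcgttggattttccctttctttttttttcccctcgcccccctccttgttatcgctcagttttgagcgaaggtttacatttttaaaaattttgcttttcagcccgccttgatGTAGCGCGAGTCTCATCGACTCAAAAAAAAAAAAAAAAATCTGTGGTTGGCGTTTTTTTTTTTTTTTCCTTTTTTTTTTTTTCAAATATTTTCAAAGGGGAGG
Pax6: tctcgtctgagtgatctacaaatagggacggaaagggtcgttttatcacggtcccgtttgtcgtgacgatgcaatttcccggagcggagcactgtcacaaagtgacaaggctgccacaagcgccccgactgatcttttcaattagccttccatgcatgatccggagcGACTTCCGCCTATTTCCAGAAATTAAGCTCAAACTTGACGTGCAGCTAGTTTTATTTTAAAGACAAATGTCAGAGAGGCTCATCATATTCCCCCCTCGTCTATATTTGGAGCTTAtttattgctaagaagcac
Gm52667: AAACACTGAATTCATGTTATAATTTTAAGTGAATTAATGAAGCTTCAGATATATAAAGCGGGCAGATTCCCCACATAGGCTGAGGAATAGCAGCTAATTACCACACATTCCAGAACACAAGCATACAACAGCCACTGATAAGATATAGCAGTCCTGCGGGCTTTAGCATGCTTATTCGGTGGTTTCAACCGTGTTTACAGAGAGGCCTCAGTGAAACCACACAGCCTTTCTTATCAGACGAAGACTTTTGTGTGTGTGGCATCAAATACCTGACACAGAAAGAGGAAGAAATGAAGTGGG

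The next promoters lay in broken peaks with some of the longest gaps and stayed inside a cKO piece over all 300 bases. They are shown in the same way, except that capitals mark CG dinucleotides. Rbm38, which encodes an RNA-binding protein and p53 target (chr2:173021652-173021951, + strand), held 37 CG dinucleotides. Sdc4, which encodes the cell surface proteoglycan syndecan-4 (chr2:164443139-164443438, - strand), held 22, and Aif1l, which encodes an actin-bundling protein (chr2:31950053-31950352, + strand), held 29. Lhx1, a transcription factor gene needed to pattern the early nephron (chr11:84525485-84525784, - strand), held 31.
Rbm38: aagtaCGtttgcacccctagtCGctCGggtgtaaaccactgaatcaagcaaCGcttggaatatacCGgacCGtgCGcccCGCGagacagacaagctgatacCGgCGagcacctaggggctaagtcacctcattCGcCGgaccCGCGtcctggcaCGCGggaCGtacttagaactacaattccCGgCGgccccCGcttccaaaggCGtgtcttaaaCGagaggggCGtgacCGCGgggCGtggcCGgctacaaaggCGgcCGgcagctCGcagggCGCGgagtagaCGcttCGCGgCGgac
Sdc4: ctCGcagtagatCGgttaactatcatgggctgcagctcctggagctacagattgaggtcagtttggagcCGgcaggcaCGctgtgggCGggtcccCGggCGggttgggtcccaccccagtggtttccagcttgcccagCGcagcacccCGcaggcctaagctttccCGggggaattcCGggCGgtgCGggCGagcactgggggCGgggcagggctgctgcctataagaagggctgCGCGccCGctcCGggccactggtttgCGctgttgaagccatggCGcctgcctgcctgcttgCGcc
Aif1l: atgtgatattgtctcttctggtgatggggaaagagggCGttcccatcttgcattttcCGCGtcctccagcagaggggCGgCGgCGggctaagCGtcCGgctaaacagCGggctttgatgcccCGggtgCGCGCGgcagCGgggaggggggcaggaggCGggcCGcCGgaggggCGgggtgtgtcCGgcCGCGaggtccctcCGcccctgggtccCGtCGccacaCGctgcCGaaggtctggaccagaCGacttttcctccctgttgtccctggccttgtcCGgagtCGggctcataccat
Lhx1: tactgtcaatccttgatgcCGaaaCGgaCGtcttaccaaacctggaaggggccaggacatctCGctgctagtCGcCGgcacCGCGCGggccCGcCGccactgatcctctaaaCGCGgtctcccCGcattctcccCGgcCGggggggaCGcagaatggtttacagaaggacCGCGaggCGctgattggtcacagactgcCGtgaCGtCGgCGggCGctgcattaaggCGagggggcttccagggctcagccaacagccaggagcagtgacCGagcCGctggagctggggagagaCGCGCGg

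Most breaks were short interruptions of a peak that was otherwise still there. Of the 997 broken peaks, 958 overlapped 2 cKO peaks and 39 overlapped 3. The cKO pieces covered a median of 87.5% of the length of a broken peak (quartiles 78.0 and 93.3%), and 406 peaks were covered by 90% or more. Summed over 2.82 Mb of broken peaks, 85.7% of the bases lay in a cKO piece, 8.32% in gaps between pieces and 6.03% at the outer edges. Only 12 broken peaks were covered by less than 50%. At most of these regions the pieces thus spanned nearly the whole control peak.

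The gaps clustered near the shortest length that the lists allow. The longest gap of each peak had a median of 137 bp, with quartiles of 114 and 221 bp, and 574 of the 997 (57.6%) were at most 150 bp long. No 2 cKO peaks lay closer than 101 bp, so shorter interruptions could not have been seen. A gap of at least 200 bp was present in 289 broken peaks, which is 0.373% of all control peaks, and 1 of at least 500 bp in 82, or 0.106%. A gap of at least 1000 bp was present in 23, or 0.0297%. Long gaps were therefore the exception among broken peaks.

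**Figure D1:**
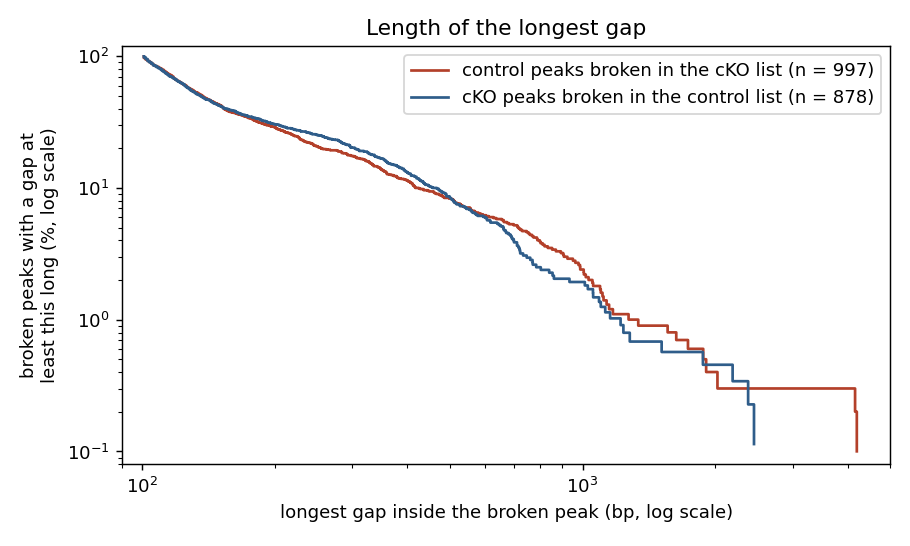
Share of broken peaks (%, log scale) whose longest gap reached at least the length on the horizontal axis (bp, log scale), for 997 control peaks broken in the cKO list and 878 cKO peaks broken in the control list. The curves run close together from the shortest gap of 101 bp, with medians of 137 and 136 bp, and end at 4193 and 2450 bp.

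Gap lengths in the opposite direction were nearly the same. The longest gap had a median of 137 bp in broken control peaks and 136 bp in broken cKO peaks, and it reached 500 bp in 8.22% (6.59 to 10.1%) of broken control peaks and 8.43% (6.68 to 10.5%) of broken cKO peaks. As shares of all peaks, gaps of at least 200, 500 and 1000 bp were found in 0.437%, 0.121% and 0.0262% of cKO peaks. Broken control peaks were less fully covered than broken cKO peaks, with medians of 87.5% and 89.2%, and 12 of 997 against 3 of 878 were covered by less than 50%. The longest gap in any control peak was 4193 bp, and the longest in any cKO peak was 2450 bp.

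The highest point of the control peak almost always survived. The control summit lay inside a cKO piece in 994 of the 997 broken peaks (99.7%, 99.1 to 99.9%), against 99.6% of width-matched control peaks that overlapped exactly 1 cKO peak. In 835 broken peaks (83.8%, 81.3 to 86.0%) the summit lay in the piece with the highest -log10 p in the cKO list. The centre of the longest gap lay a median of 703 bp from the control summit. The pieces themselves had a median width of 989 bp, and the weakest piece of a region had a median -log10 p of 4.77 in the cKO list, where the median of all peaks was 5.70. The gaps thus rarely held the control summit. The distance of 703 bp was not compared with that of gaps placed elsewhere in peaks of this width. The weakest piece is a minimum, so part of its low value was fixed by the choice. The lists hold no signal profile, so the shape of the control peak at the gap is unknown.

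In 3 broken peaks the control summit lay in no cKO piece. They were a peak of 1321 bp inside the noncoding gene Gm34755 (chr6:128802461-128803781) with a gap of 125 bp, 1 of 3440 bp inside the noncoding gene Gm33655 (chr4:114646157-114649596) with a gap of 107 bp, and 1 of 2051 bp inside Hsph1, a heat shock protein gene (chr5:149621561-149623611), with a gap of 812 bp. No other broken peak had lost its summit.

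The rule sits on a single base at its edge. In the broken peaks nearest to it, beside Aatk and Tns2, the smaller cKO overlap was 1 bp, and in 27 of the 997 it was under 50 bp, while the median was 634 bp. Just outside, control peaks beside Muc3 and Zfp94 overlapped 1 cKO peak and had a second at a distance of 3 and 4 bp, and 10 such peaks had a second within 50 bp. In 151 broken peaks at least 1 piece also overlapped a neighbouring control peak, so that there the boundary between peaks had shifted; the other 846 had all their pieces to themselves.

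The share of broken peaks rose with the width of the peak, and this rise was partly fixed by the rule. A broken control peak has to span a whole gap between cKO peaks, and no such gap was shorter than 101 bp. Narrow peaks thus had little room for a break and wide peaks had more. How much of the rise came from this was not tested. Broken control peaks had a median width of 2422 bp (quartiles 1768 and 3331 bp), against 838 bp for all control peaks. None of the 7763 narrowest control peaks was broken, and the share was 0.544% in the seventh, 1.07% in the eighth, 2.62% in the ninth and 8.12% in the tenth of 10 equal classes by width. The widest class, from 2078 to 17640 bp, held 628 of the 997 broken peaks. Among cKO peaks the widest class was broken in 8.46% of cases (7.77 to 9.18%), against 8.12% (7.52 to 8.75%) of control peaks, so the intervals overlapped there. All comparisons below are therefore made within classes of width.

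**Figure D2:**
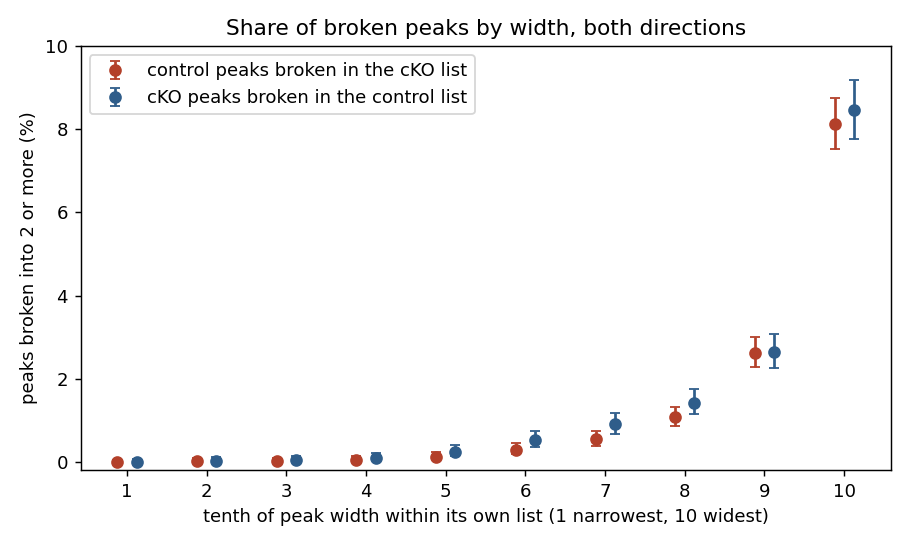
Share of peaks broken into 2 or more (%, with exact 95% intervals) by width, in 10 equal classes within each list, for control peaks broken in the cKO list and cKO peaks broken in the control list. Both rise steeply with width and reach 8.12% and 8.46% in the widest class.

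Which direction had more breaks depended on how many peaks of each list were used. With the control list reduced to as many peaks as the cKO list, 971 control peaks were broken (1.59%), against 561 cKO peaks (0.918%). With the more significant 50% of each list the order turned, with 184 broken control peaks (0.475%) and 281 broken cKO peaks (0.920%). No direction of the difference can be given from these lists.

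Broken peaks were weak for their width. Their -log10 p in the control list had a median of 7.43, with a difference of -2.09 from control peaks of the same width class with exactly 1 cKO peak (9.51; interval of the difference from the broken median, -2.25 to -1.93). In the widest class the medians were 8.27 for broken and 10.3 for single-piece peaks. The area under the caller's curve per kb of peak had medians of 1180 and 1979. In that widest class, 253 of the 1549 least significant control peaks were broken (16.3%), against 52 of the 1471 most significant (3.54%). Broken cKO peaks showed the same difference, with a median -log10 p of 6.90, with a difference of -2.11 from single-piece cKO peaks of equal width. Low strength therefore went with breaking in both directions.

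Broken peaks lay at start sites less often than other peaks of their width. A start site listed in the RefSeq promoter table lay inside 303 of the 997 broken peaks (30.4%, 27.5 to 33.4%), against 51.2% of width-matched peaks with exactly 1 cKO peak, a difference of -20.8 percentage points (-23.6 to -18.0, normal approximation). The broken peaks over both ends of Podxl held no listed start site, so the promoter table can miss start sites. All counts of start sites here are of listed ones only. Within 1000 bp of either end of a gene lay 440 of the broken peaks (44.1%), against 65.8% of matched peaks. When the peaks were matched also on strength, in 5 classes of p within each of the 10 width classes, the differences shrank to -4.90 (-7.37 to -2.44) and -7.36 points (-10.2 to -4.55). Both differences for control peaks were thus smaller among peaks of like strength and had intervals below 0. Broken cKO peaks gave -20.6 points for start sites and -5.22 after matching on strength. For gene ends they gave -16.0 points and, after matching on strength, -2.62 (-5.48 to 0.233), an interval that includes 0. The share of peaks with their summit inside a protein-coding gene was 63.7% for broken and 63.7% for matched peaks.

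**Figure D3:**
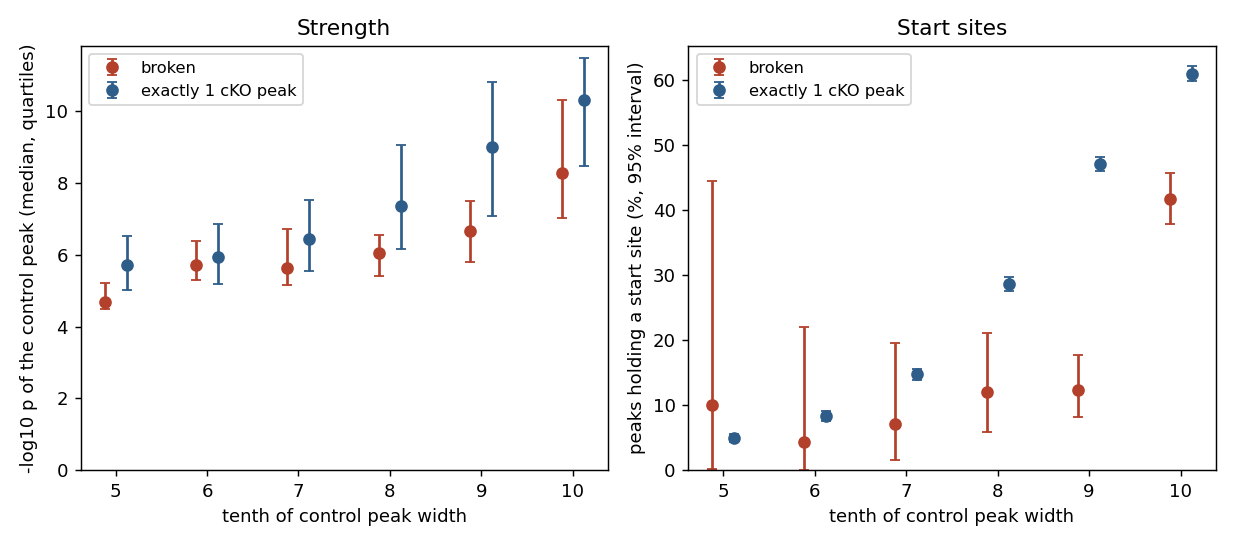
Left, -log10 p of control peaks (median with quartiles) and right, share of control peaks that hold a transcription start site (%, exact 95% interval), by width class from the fifth to the widest, for broken peaks and peaks with exactly 1 cKO peak. In the widest class broken peaks had a median of 8.27 against 10.3 and held a start site in 41.7% against 60.9% of cases.

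Within broken peaks the start sites sat in the pieces and not in the gaps. Of 426 listed start sites in broken control peaks, 416 lay in a cKO piece, 3 at an outer edge and 7 in a gap (1.64%, 0.663 to 3.36%), although gaps made up 8.32% of the bases. That is 29.8 start sites per Mb of gap, against 172 per Mb of cKO piece. In broken cKO peaks 5 of 432 start sites lay in a gap. The 7 start sites belonged to Ebf1, Pax6 and Akt2, a kinase gene of insulin signalling, and to the noncoding genes Gm52667, Gm35457, Gm34755 and Gm51696. The uncovered bases of the Ebf1, Pax6 and Gm52667 windows are those in capitals above. In 208 broken peaks with a single start site, the longest gap lay downstream of it in 142 (68.3%, 61.5 to 74.5%), where a mean of 61.5% of the peak length was downstream. Its centre was a median of 955 bp from the start site. The share expected from the extent of the peak was at the lower bound of this interval.

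Promoters in broken peaks were poorer in CG dinucleotides than those in other peaks of equal width. The 426 windows in broken peaks had a median of 19 CG dinucleotides and a GC content of 61.7%, against 24 and 64.3% for windows in matched single-piece peaks and 7 and 53.0% over all 32619 windows. This comparison was not matched on peak strength, which was lower in broken peaks. The 4 windows printed from pieces of broken peaks with long gaps, with 22 to 37, were above the median of the matched windows except that of Sdc4. Promoter windows inside pieces that are not printed held 29 at Chpt1 and 10 at Malat1, so the printed windows do not stand for all. Each of 6 short motifs was searched on both strands, with no allowance for overlap between motifs. The AP-1 motif TGANTCA was found in 3.99% of windows in broken peaks, 4.02% of matched and 7.85% of all windows, and the TEAD motif GGAATG in 12.9%, 11.7% and 14.6%. The core CCCTC of the CTCF motif was found in 76.3%, 81.9% and 66.3%, and the E-box CAGCTG in 16.9%, 14.9% and 16.4%. CTTTGAT of TCF/LEF factors was found in 2.58%, 2.13% and 3.76%, and GTTAAT of HNF1 in 4.46%, 3.71% and 7.10%. The sequence of the gaps outside these windows was not analysed here.

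Broken peaks stood close to other control peaks. The next control peak lay within 1000 bp of 404 of them (40.5%, 37.5 to 43.6%), against 24.4% of matched peaks, and after matching on strength the difference was 11.3 points (8.20 to 14.4). The 151 broken peaks that shared a piece with another control peak were kept here, so this closeness is not independent of the rule. The neighbours themselves were mostly found in the cKO list. Of 1929 control peaks next to a broken peak and not broken themselves, 74.2% (72.2 to 76.1%) overlapped a cKO peak, where 73.1% was expected from their strength. For neighbours of matched peaks these shares were 76.0% and 75.3%. The interval next to broken peaks thus included the share that strength gave.

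The longest gaps lay in a few regions with named genes. The longest of all, 4193 bp, lay in a control peak of 17640 bp over Neat1, a long noncoding RNA gene whose RNA builds paraspeckles (chr19:5833184-5850823). There the cKO library had peaks of 770 and 11713 bp, against the single control peak. A second control peak in Neat1, of 6162 bp (chr19:5821916-5828077), had a gap of 2024 bp between cKO peaks of 3124 and 934 bp. The noncoding RNA gene Malat1 on the same chromosome (chr19:5792044-5804907) had 3 cKO peaks of 7008, 2894 and 3360 bp, against a control peak of 12864 bp, with a longest gap of 328 bp. Both RNA genes are known to be active in many cell types.

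Podxl held 2 of the 3 least covered broken peaks. It encodes podocalyxin, the sialomucin that coats the podocyte foot processes (chr6:31519493-31563937), and 3 of its 29 control peaks were broken. A control peak of 6850 bp inside the gene (chr6:31543265-31550114) was reduced to cKO peaks of 760 and 999 bp with a gap of 4155 bp, so that 25.7% of it was covered, the lowest share of all 997. The peak at a gene end (chr6:31559721-31565624), of 5904 bp, had cKO peaks of 590 and 3430 bp, a gap of 1632 bp and 68.1% covered. The peak at the other end (chr6:31517286-31523473), of 6188 bp, had cKO peaks of 1361 and 649 bp, a gap of only 150 bp and 4001 bp uncovered at its edge. Neither of these end peaks held a start site listed in the promoter table. Of the 29 control peaks of Podxl, only 12 overlapped any cKO peak. Over the whole control list, 20034 of 77421 peaks overlapped none. None of the 14 cKO peaks of Podxl was broken in the control list.

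The other long gaps lay beside genes of different kinds. At Rbm38 the cKO library had peaks of 1778 and 366 bp, against a control peak of 4411 bp (chr2:173021435-173025845), with a gap of 1908 bp. At Sdc4 it had peaks of 3851 and 3217 bp, against 8735 bp (chr2:164435435-164444169), with a gap of 1879 bp. At Aif1l it had peaks of 1968 and 2035 bp, against 6242 bp (chr2:31949175-31955416), with a gap of 1735 bp. In these 3 regions the promoter printed above lay in a piece, with its start site 1178, 2030 and 1287 bp from the gap. Gaps of at least 1000 bp chosen for mention after their values were seen included 1560 bp in Col18a1 and 1100 bp in Col15a1, both genes of basement membrane collagens, and 1053 bp in a peak inside Actn4, the gene of a podocyte actinin, whose nearest gene end was that of Capn12.

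**Figure D4:**
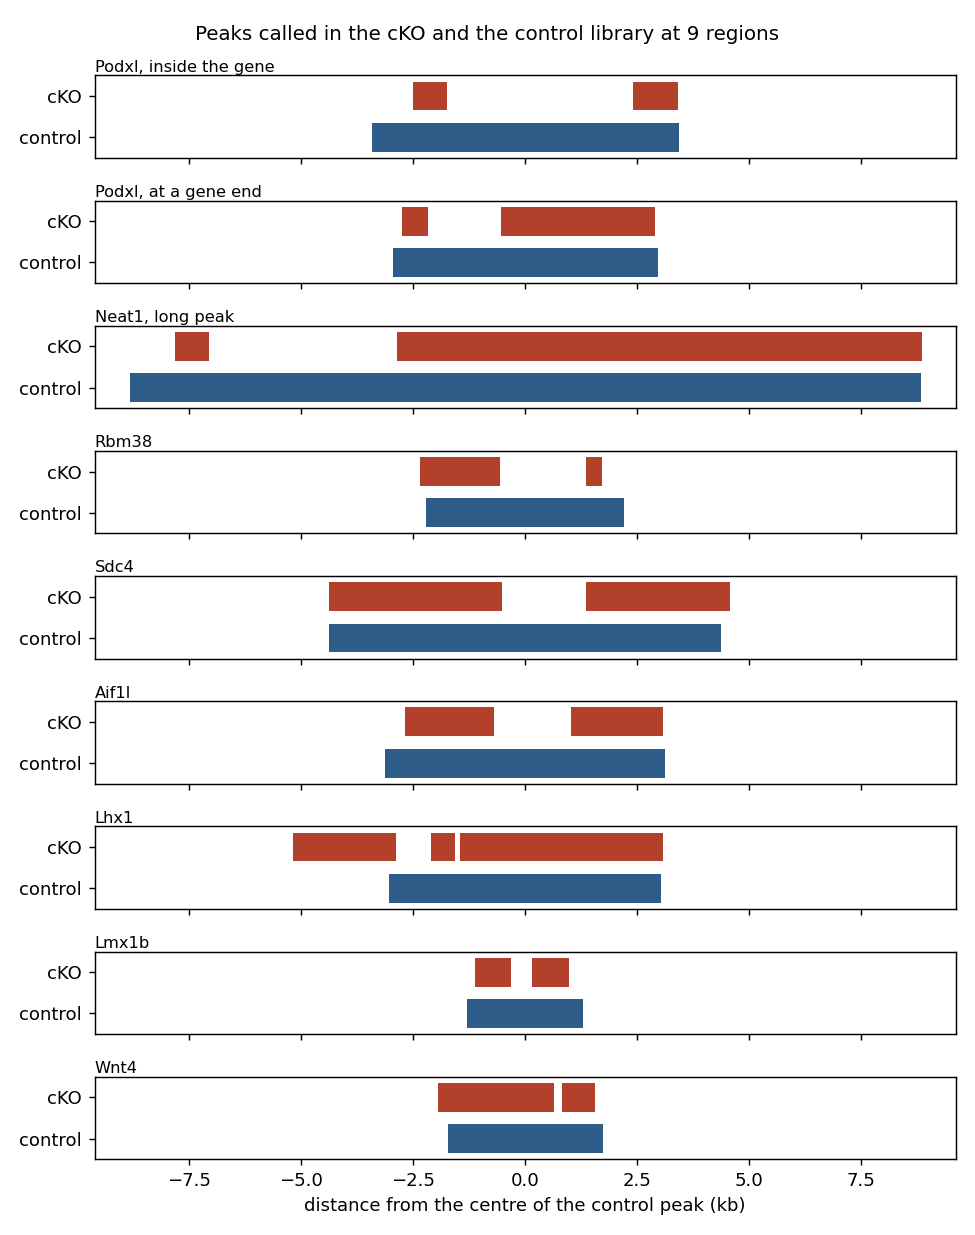
Peaks called in the cKO library (upper bars) and the control library (lower bars) at 9 regions, drawn by distance from the centre of the control peak (kb). The gaps range from 163 bp at Wnt4 to 4193 bp at Neat1, and each control peak is a single bar.

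The other 4 of the 6 least covered peaks lay inside genes or, near Spo11, between genes. A control peak of 2405 bp in AA986860 (chr1:130733334-130735738) had cKO peaks of 506 and 255 bp and 31.6% covered. The Col15a1 peak (chr4:47225237-47228710), of 3474 bp, had cKO peaks of 710 and 753 bp and 42.1% covered. A peak of 1961 bp near Spo11 (chr2:172958237-172960197) was covered by 44.5%, and a peak of 2902 bp in Anks1 (chr17:28040092-28042993) by 45.1%. In each of them the cKO pieces left more than 50% of the control peak uncovered.

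The 8 widest broken peaks with 3 pieces were covered by 87.9 to 97.5%. At Nr4a1, an immediate early gene of the nuclear receptor family (chr15:101265437-101280035), cKO peaks of 3158, 5677 and 5228 bp stood against a control peak of 14599 bp, and 96.1% was covered. At Wt1, a transcription factor gene of podocytes (chr2:105124943-105135532), cKO peaks of 3413, 5142 and 1665 bp stood against 10590 bp, with 96.5% covered and a longest gap of 130 bp. The others were the regions of Malat1 (96.3%), of Slc35b2 and Hsp90ab1 (94.6%), of the kinase gene Pkdcc (97.5%), of Ski, a repressor of TGF-beta signalling (87.9%), of the insulin receptor substrate gene Irs2 (94.4%) and of the calcium channel gene Cacna1g (92.5%). These 8 were the widest of the 39 peaks with 3 pieces. Over all 39, the share covered had a median of 85.5% and ranged from 54.2%, at Col18a1, to 97.5%.

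Broken peaks were spread over many genes. A total of 926 lay within 100000 bp of an end of a protein-coding gene, which is 1.37% of the control peaks so assigned, and they belonged to 833 of 16353 genes (5.09%). Of these, 79 genes (0.483%) had 2 or more broken peaks, and 11 (0.0673%) had 3 or more. Amotl2, which encodes a scaffold of cell junctions and regulator of the Hippo pathway, had the most, with 5 of its 18 control peaks broken. They lay side by side (chr9:102713905-102732861), had gaps of 110, 417, 393, 332 and 132 bp and were covered by 77.0 to 94.8%, and neighbouring ones shared pieces. Of the 18 cKO peaks of Amotl2, 2 were broken in the control list, so the partition of this stretch differed in both directions.

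Ndst1, which encodes an enzyme of heparan sulfate synthesis, had 4 of 12 control peaks broken, with gaps of 103, 1096, 126 and 121 bp, and none of its 15 cKO peaks. Among the 9 genes with 3 broken peaks were Stn1 (of 10), Ski (of 15), Zmynd8 (of 20), the salt-inducible kinase gene Sik1 (of 21), Ccdc85c (of 24), Lmx1b (of 25), Arid5b (of 28) and Podxl. The longest gap among them was 127 bp in Stn1, 164 bp in Zmynd8, 278 bp in Arid5b, 354 bp in Ccdc85c, 628 bp in Ski and 987 bp in Sik1. The ninth gene, Rbpms, which encodes an RNA-binding protein and lay outside the naming rule, had a longest gap of 248 bp. At Arid5b, 3 of 25 cKO peaks were broken as well.

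Podocyte genes had the highest share of broken control peaks among 11 lists of kidney and other genes. Of 256 control peaks assigned to 20 podocyte genes, 11 were broken (4.30%, 2.16 to 7.56%), where the widths of these peaks gave an expectation of 4.83 peaks (1.89%) and the background over all assigned peaks was 1.37%. With 50 width classes in place of 10, an alternative chosen after seeing the data, the expected share was 2.41%, which lies inside the interval. Their longest gaps had a median of 379 bp, against 137 bp over all broken peaks, and 4 of the 11 reached 500 bp. The broken peaks belonged to 7 genes, and the 3 of Podxl and 3 of Lmx1b made up 6 of them. Counted the other way round, 3 of their 171 cKO peaks were broken (1.75%, 0.363 to 5.04%), with 2.81 expected and a background of 1.51%. These counts are small, and the list was chosen with earlier results of these data known. Neither width expectation accounted for peak strength. Of the 11 broken control peaks, 10 lay in the widest class, where less significant peaks were broken more often.

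Lmx1b, a transcription factor gene of podocytes that is mutated in nail-patella syndrome, had breaks of moderate length. Its control peaks of 2592 bp (chr2:33557958-33560549), 4916 bp (chr2:33579491-33584406) and 4428 bp (chr2:33628672-33633099) had gaps of 462, 379 and 159 bp and were covered by 62.7%, 85.5% and 94.2%. Efnb1, which encodes the slit diaphragm ligand ephrin-B1, had 1 of 11 peaks broken (chrX:99214914-99218940), into 827, 1292 and 909 bp, with a gap of 568 bp. Foxc2, a transcription factor gene of podocytes, had 1 of 4 broken, with a gap of 126 bp, and 1 of its 3 cKO peaks was broken too. Members outside the naming rule were Synpo, the gene of an actin-associated podocyte protein, with 1 of 20 peaks broken and a gap of 870 bp, and Tcf21, with 1 of 13 and a gap of 103 bp.

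Genes of the early nephron came next. Of their 183 control peaks 7 were broken (3.83%, 1.55 to 7.72%), with 3.53 expected from width, and of their 146 cKO peaks 2 were broken (1.37%). Lhx1 had 2 of 8 control peaks broken. Its promoter peak (chr11:84521648-84527724), of 6077 bp, had cKO pieces of 2304, 532 and 4533 bp with a longest gap of 790 bp, and the promoter printed above lay in the longest piece. The first of these pieces reached into the neighbouring broken peak of Lhx1 (chr11:84518988-84520738). Wnt4, the gene that marks the lineage, had 1 of 20 control peaks broken, at 8024 bp from the gene end (chr4:137305662-137309122), into 2595 and 743 bp with a gap of 163 bp. Jag1, a Notch ligand gene, had 1 of 10 broken with a gap of 102 bp, the Notch receptor gene Notch2 had 1 of 23 with 134 bp, and the cyclin gene Ccnd1 had 1 of 6 with 102 bp. Outside the naming rule, the transcription factor gene Sox4 had 1 of 10 with 132 bp. Apart from that of Lhx1, all these gaps were under 200 bp.

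Interstitial genes were broken at similar rates in both directions. Of their 238 control peaks 7 were broken (2.94%, 1.19 to 5.97%, 4.14 expected), and of their 197 cKO peaks 8 were broken (4.06%). Foxd1, a transcription factor gene of the renal stroma, had 1 of 12 broken, with a gap of 150 bp. The proteoglycan gene Dcn had 1 of 3 with 112 bp. Outside the naming rule, the homeobox gene Meis2 had 1 of 31 with 102 bp and the receptor gene Pdgfrb 1 of 8 with 119 bp. Ebf1 had 1 of 21, the break of 103 bp in its promoter printed above.

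The remaining lists had between 0 and 4 broken control peaks each. None of 84 proximal tubule, 114 collecting duct and ureteric bud or 56 immune control peaks was broken, where 0.927, 2.09 and 0.432 were expected from width. By the exact interval, a count of 0 allows shares of up to 4.30%, 3.18% and 6.38%. Taken as 3 peaks of each list, the limits were 3.57%, 2.63% and 5.36%. Loop and distal tubule genes had 1 of 95, at Esrrg with a gap of 168 bp, and progenitor genes 2 of 154 (1.30%, 0.158 to 4.61%), at Osr1 and Hoxa11 with gaps of 123 and 131 bp. Endothelial genes had 4 of 184 (2.17%, 0.595 to 5.47%), where 2.15 were expected, at Egfl7, Esam, Flt1 and Sox18, with gaps of 157, 106, 126 and 327 bp. The intervals of these shares overlapped. Among cKO peaks 5 of 156 endothelial (1.60 expected), 4 of 133 progenitor (3.14 expected) and 3 of 89 collecting duct peaks (1.82 expected) were broken. For immune and for loop and distal tubule genes it was 1 of 35 and 1 of 74, and for proximal tubule genes 0 of 64.

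**Figure D5:**
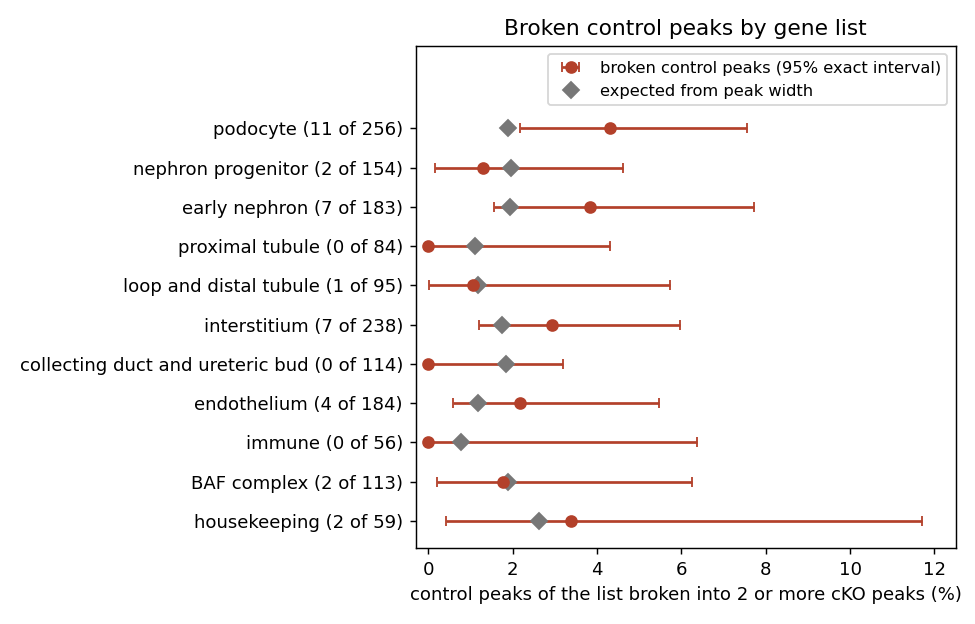
Share of the control peaks of each gene list that were broken into 2 or more cKO peaks (points, %, with exact 95% intervals) beside the share expected from peak width (diamonds). The podocyte list stands at 4.30% with an interval from 2.16%, above its expectation of 1.89% from 10 width classes but not above the 2.41% from 50, and the intervals of the other lists include their expectations.

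Genes of the BAF complex itself had broken peaks at a rate near the background of 1.37%. Smarca4, the deleted gene, had none of 3 control peaks broken, and Smarca2, which encodes the alternative ATPase, none of 8. Peak calls do not show a deletion, so these peaks are no check of the genotypes. Among 113 control peaks of the BAF list 2 were broken (1.77%, 0.215 to 6.25%, 2.13 expected from width), both at Dpf3, a subunit gene, with gaps of 190 bp and, in its promoter peak (chr12:83484553-83489149), 107 bp. In the other list, 3 of 76 cKO peaks of BAF genes were broken (3.95%, 0.822 to 11.1%, 1.48 expected). Housekeeping genes had 2 of 59 (3.39%, 0.413 to 11.7%, 1.54 expected), at Actb with 204 bp and at Ywhaz with 171 bp.

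Peaks with long gaps held a start site about as often as those with short ones. Of the 82 peaks with a gap of at least 500 bp, 25 held a start site (30.5%, 20.8 to 41.6%), against 222 of 708 with gaps under 200 bp (31.4%, 28.0 to 34.9%). Within 1000 bp of a gene end lay 44 of the 82 (53.7%, 42.3 to 64.7%), against 313 of the 708 (44.2%, 40.5 to 48.0%), and these intervals overlapped. Their median width was 3379 bp, against 2287 bp, and their median -log10 p 7.80, against 7.32. The summit lay in the most significant piece in 67 of 82 and in 600 of 708. A long gap fits only inside a wide peak, so the greater width was partly fixed by the definition.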

How the data were processed

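Chromatin accessibility was measured by ATAC-seq in 1 Brg1 cKO and 1 control library. Tools that the submitters' processing notes name are Trim Galore, SAMtools and Genrich, with the build mm10. No source used here gives the aligner, the versions, the settings or how insertion positions were shifted. Each library came as 1 peak list in narrowPeak form, with a deposited score (area per bp times 1000, capped), a deposited signal (area under the caller's curve) and the authors' -log10 p and -log10 q per peak; these depend on depth and were compared within a list only. They hold no read counts, so the depth is unknown. Lowest -log10 q was 1.35 in the cKO and 1.42 in the control list. Peaks outside chromosomes 1 to 19 and X (108 per list) were left out.

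Overlaps, gaps and matched shares were computed with Python 3.11.15, NumPy 2.4.6, pandas 2.3.3 and SciPy 1.17.1; coordinates are 1-based. Matched values weight single-piece peaks by the broken peaks in each of 10 width classes. Intervals of differences use binomial counting error, or, for medians, the exact interval of the broken median. Genes came from RefSeq GRCm38.p6, each peak going to the protein-coding gene end nearest its summit within 100000 bp; start sites came from the RefSeq promoter table, which gives strand and covers 26794 gene symbols; this measure was chosen after seeing the reference. On a simulated control list all 2377 planted breaks were recovered, and 95 of 100 intervals held a planted difference. The members, the 11 gene lists and the naming rule were chosen with earlier results of these data known. The rule named the 8 peaks with most pieces, the 6 with the longest gaps, the 6 least covered, those (up to 6) with the summit outside every piece, the 10 genes with most broken peaks, up to 4 genes per list, and Smarca4, Smarca2 and Wnt4. Not every gene that the rule named is reported here. No genome sequence was used, so motifs were searched in promoter windows only.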

Additional observations from a re-analysis of the deposited data

How the results depend on the processing

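Of 82 alternatives to 30 results, 52 stayed within the counting error or within 1.5 times the count, 30 moved and 0 reversed. Counts, shares and differences whose interval included 0 could not be labelled reversed, so for them this 0 was fixed in advance. The order of the directions, which turned with the more significant 50% of each list, was not among these results. The number of broken control peaks, 997 (1.29%), was 289 (0.373%) with cKO peaks closer than 200 bp joined, 82 (0.106%) with those closer than 500 bp joined, and 184 (0.475%) with the more significant 50% of each list. The counts after joining restate the peaks with a gap of at least 200 and 500 bp and are no separate result. The share was 1.11% where a cKO peak had to lie 50% inside, 1.59% with lists of equal length, 0.920% with cKO peaks of -log10 q of at least 2, and 1.09% where pieces overlapped no other control peak, an alternative chosen after seeing the data. Broken minus width-matched peaks differed by -17.8 (gene ends), -17.5 (start sites), -1.71 (-log10 p) and -1013 (area) with 5 width classes. The area difference was -2017 with 20 and -2172 with 50 classes, the last chosen after seeing the data. Matching also on p gave -7.36 (gene ends), -4.90 (start sites), 0.604 (summit inside a piece) and -8.71 points (length covered). The count was 1 for progenitor genes with any annotated gene, 0 for loop and distal tubule genes and 1 for BAF genes both with any annotated gene and within 50000 bp. With lists of equal length, the difference from the width expectation was -1.35 (proximal tubule), -2.16 (collecting duct) and -1.26 points (immune), and with 50 classes -1.21 (proximal tubule) and -0.906 (immune). For podocyte genes the excess over the width expectation was 2.41 points with 10 and 1.88 with 50 classes, and the expectation then lay inside the interval of the share. The cause of these shifts was not tested. No paired analysis was possible because each genotype had 1 library, and no library could be left out. Unknown depth and the least distance between peaks limit which breaks can be seen.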

Other observations

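The share of control peaks that were broken ranged from 0.639% on chromosome X (7 of 1096, 0.257 to 1.31%) to 1.86% on chromosome 8 (80 of 4307, 1.48 to 2.31%). A further 3 broken control peaks lay outside chromosomes 1 to 19 and X and entered no comparison.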
